A study of Mus musculus with 14 samples.

Results

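The 10 genes examined here, Trp63, Sox2, Klf4, Klf5, Grhl1, Grhl3, Pax9, Ovol1, Pitx1 and Tfap2a, encode transcription factors of squamous epithelia. They were chosen by symbol among the 55291 genes counted in each sample by bulk RNA-Seq, and each symbol was found once. The samples came from the esophagus of 9 C57BL/6 mice, whose tissue was separated into a peeled epithelial sheet and the underlying stroma. Peeled epithelium was sequenced from 5 aged mice (O1, O2, O3, OF5 and OM8) and 4 young mice (Y1, Y3, YF5 and YM4). Stroma was sequenced from the same O1, O2 and O3 (aged, n = 3) and from Y1 and Y3 (young, n = 2). The series description puts aged mice at 18 months or older and young mice at 4 months or younger. No allele, transgene or treatment is named for any group, and sex is not given for every mouse. OF5, OM8, YF5 and YM4 carry mouse codes of another form than the other 5 mice and have epithelium only.

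A stratified squamous epithelium is renewed from its deepest cell layer, and the cells above this layer stop cycling and mature into a barrier. p63, encoded by Trp63, and SOX2 are known for maintaining the basal, proliferative state, and TFAP2A for its part in surface ectoderm and epidermis. KLF4, the grainyhead-like factors GRHL1 and GRHL3 and OVOL1 are known for their part in terminal differentiation and barrier formation, and KLF5 acts in proliferating keratinocytes. PAX9 is a paired-box factor of foregut development that stays present in the adult esophagus, and PITX1 is a homeodomain factor best known from the hindlimb. These roles are background from other work and were not measured here.

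Counts of reads per gene, as deposited, summed to between 8217516 and 21867101 per epithelial sample and between 13257833 and 15644580 per stromal sample. The epithelial samples of the 4 mice with epithelium only stood apart. The ribosomal RNA gene CT010467.1 took 63.9 to 73.9% of their counts, compared with 10.4 to 23.3% in the 5 epithelial samples of mice with both layers and 1.47 to 1.88% in stroma. The summed counts of the 10 genes were accordingly 2599 to 4213 in these 4 samples, 31486 to 43987 in the other 5 epithelial samples and 955 to 1833 in stroma. Values below are normalized counts, which are CPM with library sizes adjusted by the TMM method. A total of 3 counts, taken here as the floor, corresponds to 0.0872 to 0.124 normalized counts in the epithelium of mice with both layers, 0.707 to 1.25 in that of mice with epithelium only and 0.115 to 0.175 in stroma. This floor covers counting error only. Markers fitted the labels of the layers: 6 keratinocyte genes (Krt5, Krt14, Krt15, Krt4, Krt13 and Krtdap) summed to 16940 to 53930 normalized counts in epithelium and 35.9 to 441 in stroma, while 6 skeletal muscle genes (Acta1, Ckm, Tnnt3, Mylpf, Tnni2 and Tnnc2) summed to 8.27 to 671 and 13030 to 19450. Smooth muscle markers summed to 331 to 835 in epithelium and 302 to 2048 in stroma, and fibroblast markers to 281 to 633 and 415 to 1031, so both were also measured in the epithelial sheets. Endothelial (10.04 to 18.0 and 27.5 to 81.2), immune (7.27 to 30.7 and 28.1 to 105) and Schwann cell markers (0.471 to 7.64 and 10.7 to 61.8) had lower sums in epithelium.

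Sequence before the annotated start of transcription was available in the RefSeq set for 6 of the 10 genes (Sox2, Klf4, Grhl1, Grhl3, Pax9 and Tfap2a). It is shown for 4 of them, because these 4 hold most of the matches to the motifs of the GC-box and CACCC type bound by the KLF family and the AP-2 motif bound by TFAP2A, and so show where letters linked to some of these factors stand in front of others. Each line gives the 250 bases before the RefSeq start on GRCm38.p6, 5′ to 3′ on the strand of the gene, with matched motifs in capitals. The windows are chr3:34649745-34649994 (plus strand) for Sox2, chr4:55532476-55532725 (minus strand) for Klf4, chr12:24572037-24572286 (plus strand) for the first start of Grhl1 and chr4:135573633-135573882 (minus strand) for Grhl3.
Sox2: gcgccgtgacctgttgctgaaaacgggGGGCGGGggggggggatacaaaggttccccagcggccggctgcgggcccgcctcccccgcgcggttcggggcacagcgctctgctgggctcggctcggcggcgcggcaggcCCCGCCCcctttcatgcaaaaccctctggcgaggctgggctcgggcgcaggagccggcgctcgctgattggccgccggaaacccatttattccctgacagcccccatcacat
Klf4: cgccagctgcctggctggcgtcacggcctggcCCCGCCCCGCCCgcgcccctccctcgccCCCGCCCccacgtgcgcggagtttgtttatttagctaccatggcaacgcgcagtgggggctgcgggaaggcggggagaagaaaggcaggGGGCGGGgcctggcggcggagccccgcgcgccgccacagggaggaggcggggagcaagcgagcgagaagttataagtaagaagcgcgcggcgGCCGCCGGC
Grhl1: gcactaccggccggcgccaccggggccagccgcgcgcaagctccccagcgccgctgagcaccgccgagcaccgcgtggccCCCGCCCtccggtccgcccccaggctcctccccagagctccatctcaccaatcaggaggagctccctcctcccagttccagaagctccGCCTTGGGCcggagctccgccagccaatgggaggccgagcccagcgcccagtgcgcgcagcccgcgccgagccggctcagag
Grhl3: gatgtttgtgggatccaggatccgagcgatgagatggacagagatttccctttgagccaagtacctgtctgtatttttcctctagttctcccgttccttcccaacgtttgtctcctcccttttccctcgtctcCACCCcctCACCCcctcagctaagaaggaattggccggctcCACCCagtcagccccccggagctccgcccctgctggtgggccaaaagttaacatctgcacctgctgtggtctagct

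The motifs were searched on both strands. The GC box GGGCGGG, read as CCCGCCC on the other strand, was matched 2 times in the Sox2 window (at -223 and -112 from the start), 4 times in the Klf4 window (at -218, -213, -190 and -101, the first and second of which overlap) and 1 time in the Grhl1 window (at -170). It stood in 23.4% of all 32851 windows of this length. The AP-2 motif GCCNNNGGC was matched in the Klf4 window at -9 and in the Grhl1 window at -82, against 13.7% of all windows. The Grhl3 window held CACCC at -117, -109 and -76, a motif found in 52.0% of all windows. The other windows held CACCC in a second start of Grhl1 and of Tfap2a, and ACAAT, a SOX motif found in 27.7% of windows, in Pax9. Motifs of GRHL factors (AACNGGTT, 1.79% of windows), PITX factors (TAATCC, 6.25%) and OVOL factors (CCGTTA, 2.18%), the p63 motif (0.490%) and the TATA motif TATAAA (12.4%) were not matched in any of the 8 windows of the 6 genes. A match describes letters in these windows only.

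All 10 genes were higher in peeled epithelium than in stroma. Epithelium (n = 9) was compared with stroma (n = 5) over 16791 genes by edgeR's quasi-likelihood test, with DEGs called where the p-value adjusted by the Benjamini-Hochberg method was below 0.05. Of all genes tested, 26.1% were called higher in epithelium, and in 14.4% every epithelial sample lay above every stromal sample. Each of the 10 genes met both criteria. Their median log2 fold change was 5.46, against -0.051 over all genes tested. In bulk samples, fewer cells of a type and less RNA per cell cannot be told apart. The skeletal muscle sum, at 13030 to 19450 in stroma, moved with the layer in the opposite direction, and its part in these differences was not tested.

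**Figure D1:**
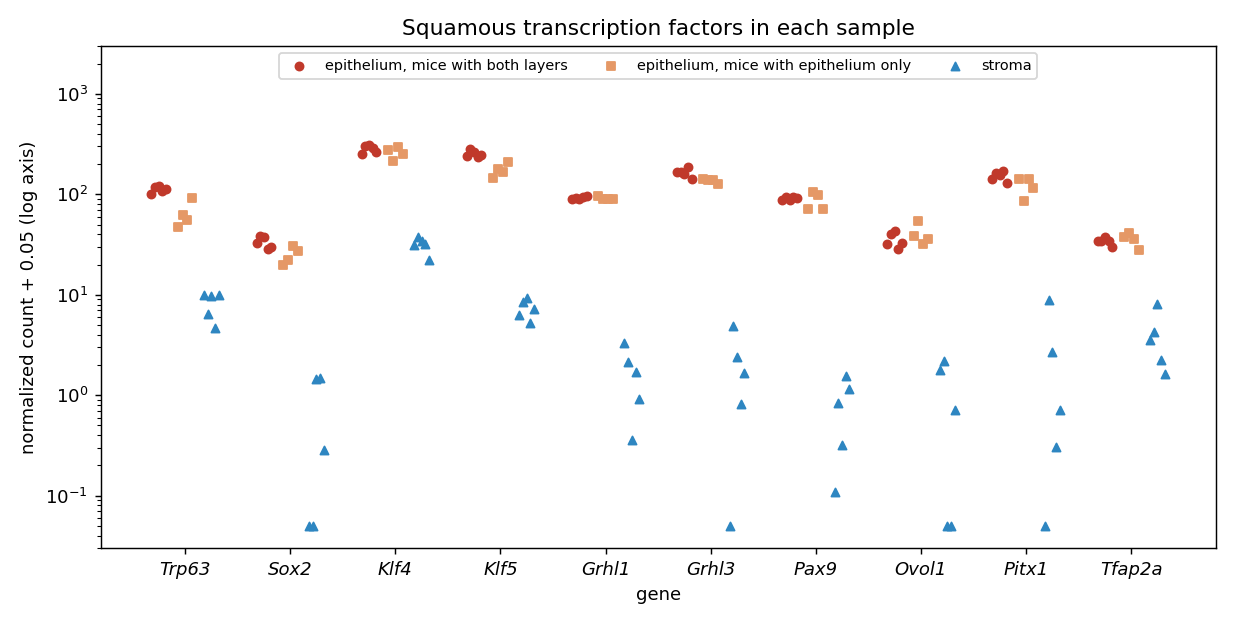
Normalized counts (log axis, with 0.05 added so that zeros can be drawn) of the 10 genes in each sample. Red circles are epithelium of the 5 mice with both layers, orange squares epithelium of the 4 mice with epithelium only, and blue triangles the 5 stromal samples. For each gene every epithelial point lies above every stromal point. On the scale drawn here the Trp63 squares, at 47.5 to 91.0, lie below the Trp63 circles, at 99.8 to 122. On the scale of the epithelial samples alone these ranges overlap, at 41.1 to 80.8 for the squares and 75.1 to 92.0 for the circles.

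Among the genes of the basal state, Trp63 (chr16:25683763-25892102, plus strand, in the GENCODE M21 annotation of GRCm38) ran from 47.5 to 122 normalized counts in the 9 epithelial samples, with a median of 99.8. In stroma it had 9.80 in O1, 6.33 in O2, 9.68 in O3, 4.64 in Y1 and 9.93 in Y3. Every stromal sample was thus above the floor, yet the lowest epithelial sample lay well above the highest stromal one. The means of 90.9 ± 28.8 (SD, n = 9) and 8.08 ± 2.44 (SD, n = 5) gave a log2 fold change of 3.50 (standard error, SE, of 0.287, adjusted p = 2.38e-09, edgeR).

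Sox2 (chr3:34650405-34652461, plus strand) encodes an SRY-box factor needed to specify the esophagus from the foregut. It ran from 19.6 to 38.3 normalized counts in epithelium, with a median of 29.9, and had 0 in the stroma of O1 and O2, 0.236 in Y3, 1.42 in O3 and 1.44 in Y1. The 2 stromal samples at 0 and the 3 others were all far under the epithelial range. The log2 fold change was 5.56 (SE 0.650, adjusted p = 2.60e-06, edgeR), with means of 29.6 ± 6.31 (SD, n = 9) and 0.619 ± 0.746 (SD, n = 5). Sox2 lies inside the longer gene Sox2ot on the same strand, whose exons it does not share.

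Tfap2a (chr13:40715302-40738376, minus strand) encodes an AP-2 factor of surface ectoderm and epidermis. Its normalized counts ran from 28.0 to 40.8 in epithelium, with a median of 34.7. In stroma they were 3.50 in O1, 4.19 in O2, 7.99 in O3, 2.22 in Y1 and 1.58 in Y3. The 3 aged stromal samples lay above the 2 young ones, a pattern that was not tested. Tfap2a had a log2 fold change of 3.15 (SE 0.296, adjusted p = 1.77e-08, edgeR) between means of 34.7 ± 3.87 (SD, n = 9) and 3.90 ± 2.51 (SD, n = 5).

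The Krüppel-like genes Klf4 and Klf5 were measured in every stromal sample. Klf4 (chr4:55527143-55532466, minus strand), a factor of barrier formation, ran from 217 to 307 in epithelium, with a median of 274. In stroma it had 31.1 in O1, 37.7 in O2, 34.1 in O3, 31.7 in Y1 and 22.3 in Y3, far below each epithelial sample and far above the floor. Klf4 had a log2 fold change of 3.12 (SE 0.196, adjusted p = 4.58e-11, edgeR) between 273 ± 30.0 (SD, n = 9) and 31.4 ± 5.69 (SD, n = 5). Klf5 (chr14:99298691-99315036, plus strand) ran from 145 to 280 in epithelium, with a median of 237. In stroma Klf5 had 6.24 in O1, 8.42 in O2, 9.33 in O3, 5.16 in Y1 and 7.13 in Y3. Its lowest epithelial sample, OF5, still lay well above each stromal sample. The log2 fold change of Klf5 was 4.91 (SE 0.251, adjusted p = 3.85e-12, edgeR) between 218 ± 46.2 (SD, n = 9) and 7.26 ± 1.67 (SD, n = 5).

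The grainyhead-like genes Grhl1 and Grhl3 were both low in every stromal sample. Grhl1 (chr12:24572283-24617391, plus strand), known for its control of desmosomal cadherin genes, ran only from 89.0 to 96.8 normalized counts in the 9 epithelial samples, with a median of 90.5 and a coefficient of variation of 3.22%. On the scale of the 9 epithelial samples alone, however, Grhl1 ran from 67.1 to 82.8, so this evenness belongs to the scale of the 14 samples. Its stromal values were 3.27 in O1, 2.10 in O2, 0.306 in O3, 1.65 in Y1 and 0.867 in Y3. All lay far below the epithelial range, and the log2 fold change was 5.84 (SE 0.391, adjusted p = 2.34e-10, edgeR) between 91.9 ± 2.96 (SD, n = 9) and 1.64 ± 1.14 (SD, n = 5). Grhl3 (chr4:135541888-135573630, minus strand), needed for the skin barrier, ran from 127 to 189 in epithelium, with a median of 143. In stroma Grhl3 had 0 in O1, 4.89 in O2, 2.37 in O3, 0.774 in Y1 and 1.62 in Y3. The O2 value was the highest of the 5 and the O1 value the lowest. Grhl3 had a log2 fold change of 6.27 (SE 0.646, adjusted p = 5.38e-07, edgeR) between 152 ± 19.5 (SD, n = 9) and 1.93 ± 1.88 (SD, n = 5).

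Pax9 (chr12:56691767-56712822, plus strand) encodes the paired-box factor named above. It ran from 71.3 to 106 normalized counts in epithelium, with a median of 91.1. In stroma it had 0.0583 in O1, from 1 read, 0.781 in O2, 0.268 in O3, 1.5 in Y1 and 1.10 in Y3. The young stromal samples lay above the aged ones, the opposite order to Tfap2a, and this was not tested either. The log2 fold change of Pax9 was 6.89 (SE 0.433, adjusted p = 1.22e-10, edgeR) between 89.4 ± 11.4 (SD, n = 9) and 0.741 ± 0.590 (SD, n = 5).

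Ovol1 (chr19:5549136-5560646, minus strand), which encodes a zinc finger repressor of progenitor genes, ran from 28.2 to 54.2 normalized counts in epithelium, with a median of 36.0. In stroma it had 1.75 in O1, 2.14 in O2, 0 in O3 and Y1, and 0.670 in Y3. The zeros thus fell in other mice than those of Sox2. Ovol1 had a log2 fold change of 5.37 (SE 0.686, adjusted p = 8.93e-06, edgeR) between 37.3 ± 7.86 (SD, n = 9) and 0.911 ± 0.990 (SD, n = 5).

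Pitx1 (chr13:55825051-55836192, minus strand), which encodes a paired-type homeodomain factor, ran from 84.9 to 170 normalized counts in epithelium, with a median of 143. In stroma it had 0 in O1, 8.79 in O2, 2.64 in O3, 0.258 in Y1 and 0.670 in Y3. The O2 value was the highest, as for Grhl3, and the keratinocyte sum was also highest in the stroma of O2, at 441 normalized counts, whose part in the stromal values was not tested. The log2 fold change of 5.78 had the largest standard error of the 10 genes, 0.891 (adjusted p = 7.07e-05 from edgeR), between 139 ± 25.9 (SD, n = 9) and 2.47 ± 3.68 (SD, n = 5).

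Some exons of these genes lie over those of other genes, and strand use in the authors' counting is not stated. Exons shared 690 bases between Ovol1 and the pseudogene Gm31166 on the opposite strand, 189 between Pax9 and Slc25a21, 165 between Pitx1 and Gm47071, and 380 between Tfap2a and Gm26688. Further genes on the opposite strand shared exon bases with Ovol1 (AC126029.1, 76) and with Tfap2a (Gm47061, 265, and Gm47067, 73). Pitx1 also shared 108 exon bases with the lincRNA Gm28760 on its own strand, which knowledge of the strand would not resolve. Reads from these stretches cannot be assigned to one gene from the deposited counts, so the values of these 4 members are uncertain to that extent. Runs of 50 bases were also shared with genes elsewhere. Klf4 shared 8 with the pseudogene Gm48640 and Klf5 shared 4 with the pseudogene Gm6007. Pax9 and Tfap2a shared such runs with many other genes. The handling of reads with several matches is not stated, so these values are uncertain too. Trp63, Sox2, Grhl1 and Grhl3 shared no run of 50 bases with an exon of another gene, and no member shared one with another member.

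Because each gene has its own length, levels of different genes were compared only as normalized counts per kilobase of annotated exon. On this scale Klf4 was first in epithelium, at 89.6 ± 9.83 (SD, n = 9), followed by Grhl3 at 54.6, Pitx1 at 52.2 and Klf5 at 42.0. Pax9 at 17.7, Grhl1 at 16.6, Sox2 at 14.4, Trp63 at 10.8, Ovol1 at 10.7 and Tfap2a at 7.08 formed the lower group. Of neighbours in this order, only Klf4 and Grhl3, and Klf5 and Pax9, had ranges that did not overlap. Grhl3 was above Pitx1 in 5 of 9 samples and Trp63 above Ovol1 in 6 of 9, so neither pair was ordered beyond its spread. Sox2 was above Trp63 in 9 of 9 samples within a sample although their ranges overlapped. Exon length was taken over all annotated transcripts, which number 8 for Trp63 and 9 for Tfap2a, and a gene that uses a shorter transcript is understated on this scale.

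**Figure D2:**
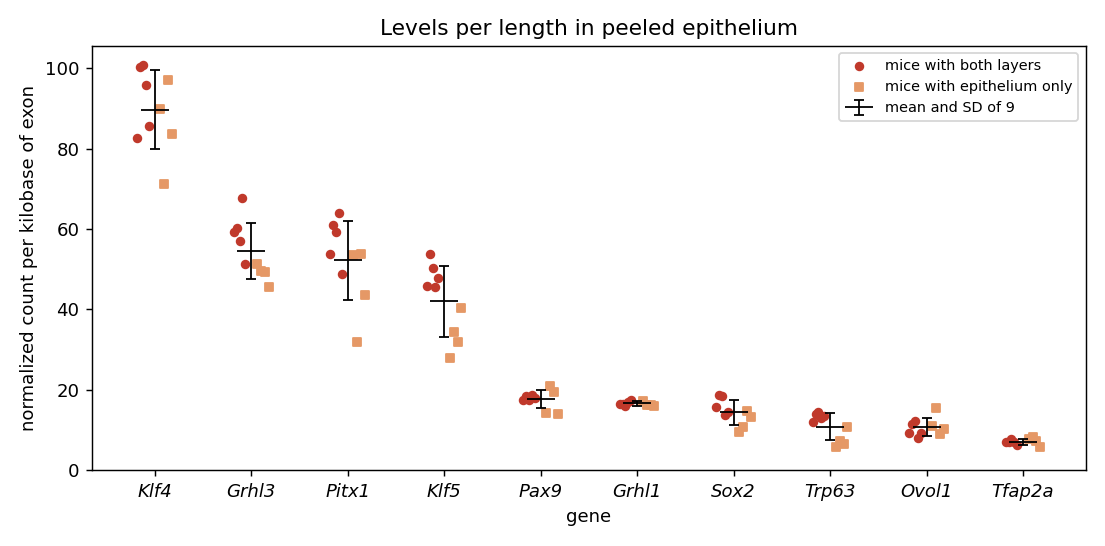
Normalized counts per kilobase of exon (linear axis) of the 10 genes in the 9 epithelial samples, in order of their mean. Red circles are the 5 mice with both layers, orange squares the 4 mice with epithelium only, and black lines the mean and SD. Klf4 stands alone at 71.1 to 101, and a gap separates Klf5 from Pax9.

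The order in stroma was not the same. Klf4 was again first, at 10.3 ± 1.87 normalized counts per kilobase (SD, n = 5), and above Klf5, at 1.40, in 5 of 5 samples. Klf5 was in turn above Trp63, at 0.962, in 5 of 5 samples. By mean, Grhl3, second in epithelium, was sixth in stroma at 0.692, and Pax9 was last at 0.147. Of neighbours in the stromal order, only Klf4 and Klf5 had ranges that did not overlap. Tfap2a was above Grhl3, and Grhl3 above Sox2, in 3 of 5 samples each, and Ovol1 was above Pax9 in 2 of 5. The stromal places of Grhl3 and Pax9 were thus not ordered beyond their spread. Klf4 exceeded Klf5 per kilobase by 1.79 to 3.21 times in the 9 epithelial samples and by 5.33 to 10.5 times in the 5 stromal samples, with no overlap between the layers. Grhl3 exceeded Grhl1 by 2.84 to 3.98 times in epithelium, while in stroma the ratio ran from 0 to 15.4 with counts as low as 0 for Grhl3 and 8 for Grhl1. Trp63 stood at 0.443 to 0.943 times Sox2 in epithelium.

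The stromal level of each gene was then set against that in the epithelium of the same 5 mice, beside the keratinocyte sum. The mean stromal value was 11.4% of the epithelial mean for Tfap2a, 11.1% for Klf4 and 7.17% for Trp63. It was 2.87% for Klf5, between 1.17 and 2.59% for Ovol1, Sox2, Grhl1, Pitx1 and Grhl3, and 0.811% for Pax9. The keratinocyte sum stood at 0.348% between these means, and within mice at 0.099% in O1, 0.900% in O2, 0.483% in O3, 0.129% in Y1 and 0.0865% in Y3. Klf4, Tfap2a, Trp63 and Klf5 were above this share in 5 of 5 mice. Grhl1, Grhl3 and Pitx1 were above it in 4 of 5 mice, Sox2 and Ovol1 in 3 and Pax9 in 2. The sum rests mostly on Krt4 and Krt13, with means of 18492 and 15800 in epithelium. Their log2 fold changes between the layers, 7.96 and 7.90, were larger than those of Krt14 (5.92), Krt15 (6.17), Krt5 (6.51) and Krtdap (6.54). Each of the latter markers thus had a larger stromal share than the sum, and these tallies hold for the sum only. Within a mouse, Klf4 ran from 8.55 to 12.3%, Trp63 from 4.28 to 9.82% and Tfap2a from 5.22 to 21.3%, the highest value being that of O3. Pax9 ran from 0.0658 to 1.58%. Which cells of the stroma held these transcripts was not measured.

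**Figure D3:**
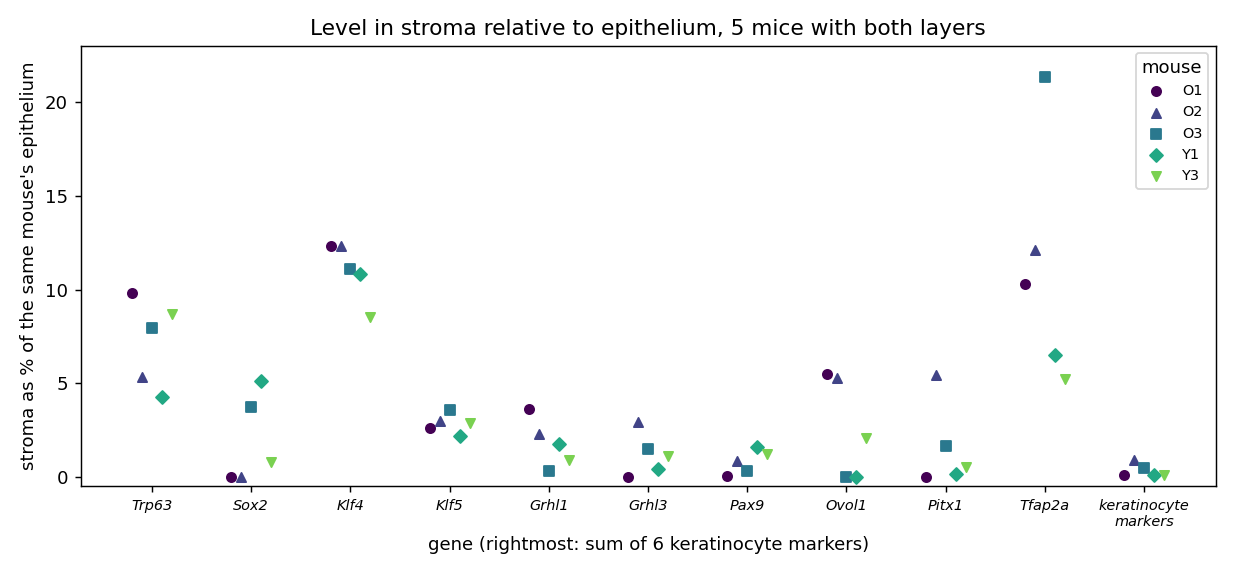
Stromal level as a percent of the epithelial level of the same mouse (linear axis) for each gene and, at the right, for the sum of 6 keratinocyte markers, with a symbol for each of the 5 mice with both layers. Klf4 lies at 8.55 to 12.3% in all 5 mice, whereas the keratinocyte sum, mostly Krt4 and Krt13, stays at 0.900% or less.

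Relatives of the 10 genes from the same families did not share their direction as a group. Of 22 relatives, 19 passed the filter on low counts. Of these, 11 were higher in epithelium (beside 26.1% of all genes tested), 5 were lower (beside 30.1%) and 3 were not called. Their median log2 fold change was 1.5. SRY-box relatives were among the highest: Sox21 had a log2 fold change of 8.65 and Sox15 of 6.02, and Sox7 had 2.57, whereas Sox9 was not called at 0.11 (adjusted p = 0.888 from edgeR). Of the p53 family, Trp73 had 1.96 and Trp53 had 0.69. Grhl2 had 5.56 and Tfap2c had 3.34, each higher as its members were, and Tfap2e was not called at 1.97 (adjusted p = 0.0756 from edgeR). Ovol2 was also called higher, at 3.79, but its epithelial mean was only 1.16 normalized counts and its layers overlapped. The floor in the mice with epithelium only was 0.707 to 1.25.

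The Krüppel-like family was split between the layers. Klf3, Klf6 and Klf10 were higher in epithelium, like Klf4 and Klf5, with log2 fold changes of 2.61, 1.5 and 0.80. Klf15, Klf9, Klf2 and Klf7 were lower in epithelium, with -2.93, -2.47, -2.25 and -0.72. Klf15 is known for its part in muscle metabolism, and Klf2 for its part in endothelium. Klf13 was not called at -0.22 (adjusted p = 0.453 from edgeR). Pitx3, known from muscle development, was lower in epithelium with -5.55, opposite to Pitx1.

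Other transcription factors known from squamous epithelia mostly followed the 10 genes. Of 18 tested, 15 were higher in epithelium (beside 26.1% of all genes tested), none was lower and 3 were not called. The median log2 fold change of the 18 was 4.24. Foxe1 had the largest, 8.62, at a low epithelial level of 5.97 ± 1.27 normalized counts (SD, n = 9), ahead of Ehf with 7.62 and Zfp750 with 7.29. ZFP750 is known as a p63 target that acts with KLF4 in epidermal differentiation. Gata3 had -0.022, Cebpb -0.045 and Maf -0.17, and these 3 were not called (adjusted p = 0.978, 0.877 and 0.535 from edgeR). All 20 genes of a list of known targets of these factors were higher in epithelium, with a median of 6.47, beside 26.1% of all genes tested. They ran from Jag2, a Notch ligand, at 1.10 to Dsg1a, a desmosomal cadherin, at 8.52. Krt5, Krt14, Krt4 and Krt13 of this list are also among the keratinocyte markers used above. The list was made of genes known from epithelia, so its direction was set by the choice and does not test the factors. The 18 other transcription factors were likewise chosen as known from epithelia, so their count beside 26.1% is no independent support.

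**Figure D4:**
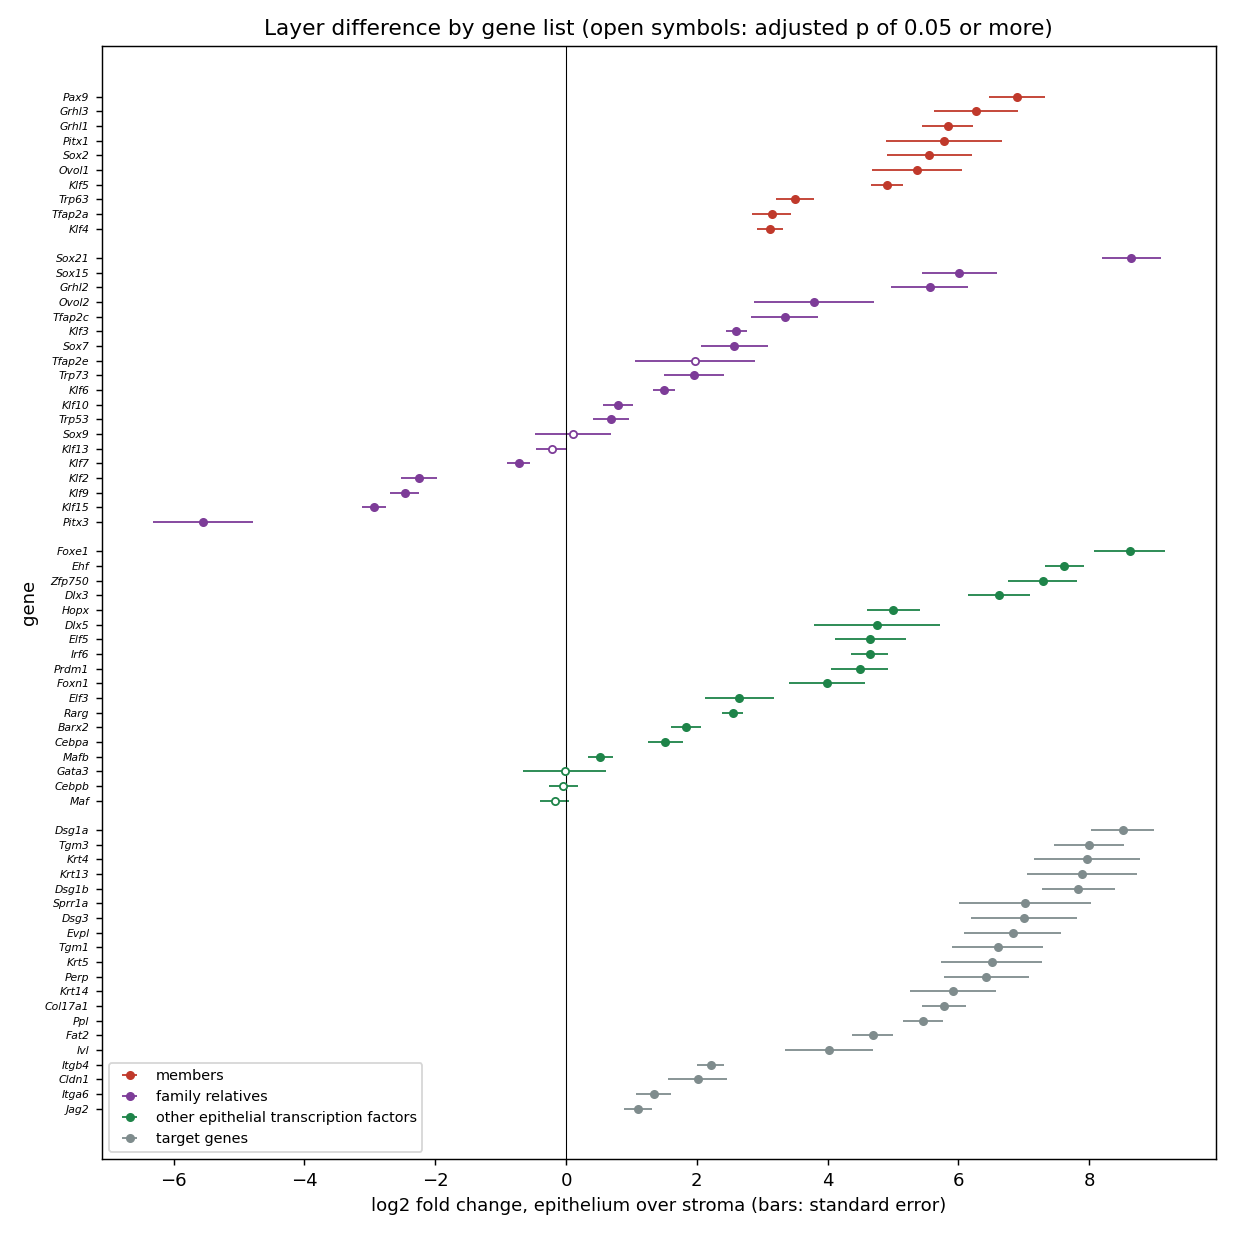
Log2 fold change, epithelium over stroma (linear axis), with its standard error, for the 10 genes (red), their family relatives (purple), other epithelial transcription factors (green) and target genes (grey). Filled symbols are called at an adjusted p-value under 0.05 and open symbols are not. The 10 genes lie between 3.12 and 6.89, while the relatives spread from -5.55 to 8.65.

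For each of the 10 genes, the tested genes with the most similar profile over the 14 samples were taken from 6837 candidates, by the root mean square difference of centred log2 normalized counts. As a description, Klf4 was most like Slc27a4 (0.213), a fatty acid transporter gene, and Daam1 (0.217). Pax9 was most like Prom2 (0.235) and Pkp3 (0.283), the latter a plakophilin of desmosomes. Grhl3 was most like Fabp5 (0.278) and Tgm1 (0.288), the transglutaminase of the cornified envelope, and Fabp5 was also among the 2 nearest genes of Pitx1 (0.345), after Gm94 (0.306). Klf5 was nearest to Gltp (0.247) and Klc3 (0.252), and Tfap2a to Hip1r (0.287) and Msmo1 (0.349). Grhl1 was nearest to Rnf225 (0.307) and Pdzk1ip1 (0.322). Trp63 had its nearest genes farther off, Ptbp3 at 0.340 and Kctd1 at 0.367, as had Sox2, with Ap1m2 at 0.399 and Il1rn at 0.410, and Ovol1, with Rapgefl1 at 0.463 and Vsig10l at 0.479. The 14 points share the difference between the layers and the depth of each library, and both enter this measure.

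Within epithelium, the 4 mice with epithelium only were also compared with the other 5. This was read from the same fit as the comparison of the ages, over 15859 genes in the 9 epithelial samples, in which 7.30% of genes were higher and 6.73% lower in the 5 mice with both layers (adjusted p-value under 0.05 from edgeR). Of the 10 genes, 1 was called, which is no more than these shares over all genes would give. This was Trp63, higher in these 5 mice by a log2 of 0.65 (SE 0.165, adjusted p = 0.0145, edgeR). On the scale of this fit, Trp63 had 75.1 to 92.0 normalized counts in the 5 mice and 41.1 to 80.8 in the other 4, where YM4 with 80.8 lay inside the range of the 5 and OF5, YF5 and OM8 with 41.1, 46.4 and 52.1 below it. Without OF5 or without OM8 the Trp63 difference was no longer called (log2 0.55 with adjusted p = 0.0772, and log2 0.67 with adjusted p = 0.0548, both from edgeR). Ovol1 had a log2 difference of -0.41 (adjusted p = 0.0525 from edgeR) and Klf5 of 0.35 (adjusted p = 0.0981 from edgeR), and neither was called. Grhl1 had 67.1 to 73.7 normalized counts in the 5 mice and 75.4 to 82.8 in the other 4, without overlap. It was not called in this fit either (log2 -0.17, adjusted p = 0.356 from edgeR), and on the scale of the 14 samples its 2 ranges overlapped. Klf5 was called without a filter on low counts and without YM4, and Ovol1 with upper quartile normalization, when each sample had to hold 10 counts or more and without Y3, all alternatives chosen after seeing the data. With DESeq2, which called 8.33% of genes higher and 10.9% lower in the 5 mice, Trp63 was called higher and Grhl1, Ovol1 and Tfap2a lower. The keratinocyte sum was 41430 to 53930 normalized counts, on the scale of the 14 samples, in the epithelium of the 5 mice and 16940 to 27680 in that of the other 4, with no overlap, and its part in the Trp63 difference was not tested. The form of the mouse code went with the share of ribosomal RNA counts and with depth, and these cannot be told apart.

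The question whether the 10 genes differed with age was then asked within the peeled epithelium, from 5 aged and 4 young mice, and the form of the mouse code entered the fit as covariate. Of 15859 genes tested, 0.0126% were called, 3.21% had an unadjusted p-value under 0.05, and in 1.31% the ages did not overlap. None of the 10 genes was called, 1 had an unadjusted p-value under 0.05, and the ages overlapped for each. DESeq2 likewise called 0 of the 10. Their median log2 fold change, aged over young, was -0.023, against -0.0033 over all genes tested.

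Ovol1 was the gene with the unadjusted p-value under 0.05. Its normalized counts, on the scale of the 9 epithelial samples, were 24.1 in O1, 30.0 in O2, 32.2 in O3, 33.1 in OF5 and 45.5 in OM8. In the young mice Ovol1 had 21.1 in Y1, 24.8 in Y3, 26.7 in YF5 and 31.9 in YM4. The ages overlapped, since YM4 lay above O1 and O2, while OM8 lay above all the others. The means of 33.0 ± 7.85 (SD, n = 5) and 26.1 ± 4.51 (SD, n = 4) gave a log2 fold change of 0.37 (SE 0.137, adjusted p = 0.9996, edgeR). Within the 5 mice with both layers it was 0.33, and within the 4 mice with epithelium only 0.48, neither called.

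By age, the normalized counts of Tfap2a were 25.5 in O1, 25.7 in O2, 28.2 in O3, 32.5 in OF5 and 34.2 in OM8, and 25.4 in Y1, 23 in Y3, 30.2 in YF5 and 24.9 in YM4. The young YF5 lay among the aged samples. The means of 29.2 ± 3.96 (SD, n = 5) and 25.9 ± 3.07 (SD, n = 4) gave a log2 fold change of 0.19 (SE 0.119, adjusted p = 0.9996, edgeR).

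Trp63 had 75.1 normalized counts in O1, 87.7 in O2, 92.0 in O3, 41.1 in OF5 and 52.1 in OM8. In the young mice Trp63 had 81.2 in Y1, 87.0 in Y3, 46.4 in YF5 and 80.8 in YM4. The low values fell in 3 of the 4 mice with epithelium only, in both ages. The log2 fold change of Trp63 was -0.18 (SE 0.162, adjusted p = 0.9996, edgeR), with means of 69.6 ± 22.3 (SD, n = 5) and 73.8 ± 18.5 (SD, n = 4). It was 0.019 within the 5 mice with both layers and -0.39 within the 4 others, and neither was called.

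Sox2 had 24.4 normalized counts in O1, 28.4 in O2, 28.6 in O3, 17.0 in OF5 and 18.4 in OM8. In the young mice Sox2 had 21.1 in Y1, 22.8 in Y3, 25.7 in YF5 and 24.3 in YM4. The 2 aged mice with epithelium only were the lowest. O1 lay inside the young range, and O2 and O3 lay above it. Among the mice with both layers the aged values lay above the young ones, and among the mice with epithelium only below them. The means were 23.3 ± 5.46 (SD, n = 5) in aged and 23.5 ± 1.95 (SD, n = 4) in young mice. The fit with the code form as covariate had a log2 fold change of the other sign, 0.011 (SE 0.153, adjusted p = 0.9996, edgeR). Within the 5 mice with both layers the log2 fold change of Sox2 was 0.31, and within the 4 others -0.44. Neither was called, and the difference between these values was not tested.

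The other 6 genes had log2 fold changes by age between -0.073 and 0.014. Klf4 ran from 182 to 237 normalized counts in aged and from 199 to 250 in young epithelium (log2 fold change -0.055, SE 0.134). Klf5 ran from 126 to 208 and from 140 to 189 (-0.059, SE 0.137). The ranges of both Krüppel-like genes overlapped between the ages over most of their length. Grhl1 ran from 67.1 to 82.8 in aged and from 70.7 to 78.9 in young epithelium (log2 fold change -0.041, SE 0.116). Grhl3 ran from 116 to 125 and from 109 to 141 (0.014, SE 0.124), where Y1 with 141 stood above the other 8 samples. Pax9 ran from 62.3 to 89.3 and from 63.3 to 82.6 (-0.0050, SE 0.134). Pitx1 ran from 71.2 to 123 and from 98.8 to 127 (-0.073, SE 0.155), with OM8 the lowest at 71.2. The young range of Pax9 lay inside the aged one, and that of Pitx1 reached slightly above it. None of the 6 was called (adjusted p = 0.9996 for each, edgeR). A p-value over the threshold does not show that the ages were alike.

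**Figure D5:**
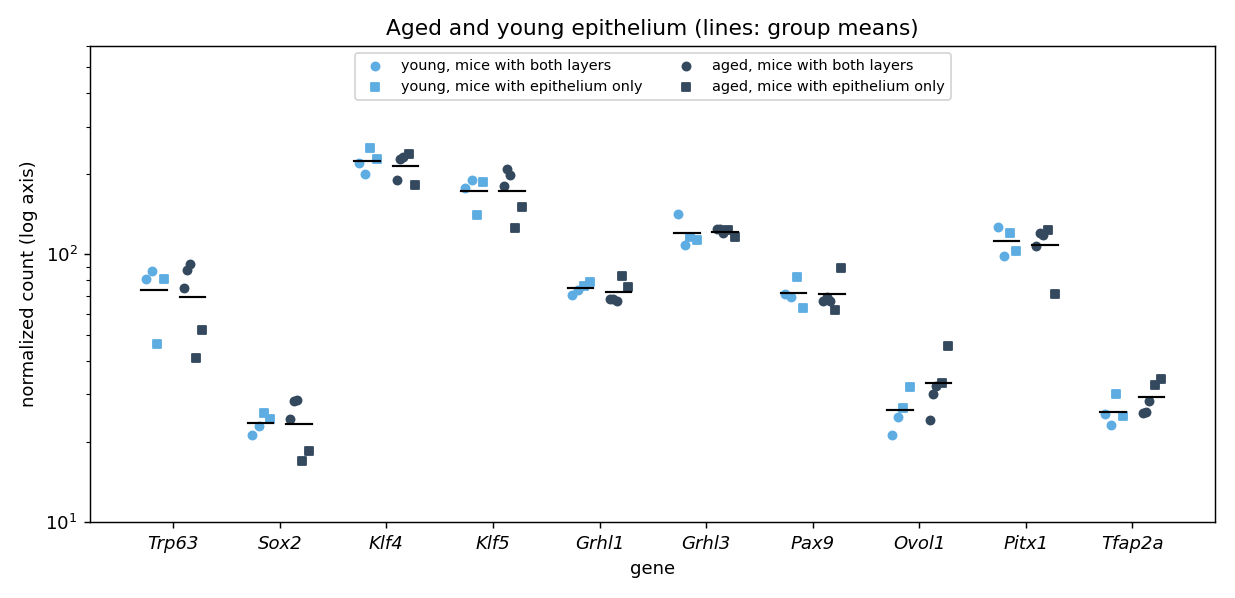
Normalized counts (log axis) of the 10 genes in young (light) and aged (dark) epithelium, on the scale of the 9 epithelial samples, with lines at the group means. Circles are mice with both layers and squares mice with epithelium only. The ages overlap for each gene, and the low Trp63 values, 41.1 to 52.1, are squares of both ages.

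The lists around the 10 genes gave no called gene by age either. For the counts that follow, 3.21% of all genes tested had an unadjusted p-value under 0.05 (edgeR), and in 1.31% the ages did not overlap. Of 18 relatives tested, 2 had an unadjusted p-value under 0.05: Klf10 (log2 fold change -0.43) and Sox7 (-0.52), with adjusted p = 0.9996 for both (edgeR). Klf10, a gene induced by TGF-beta, had 13.1 to 19.0 normalized counts in aged and 19.7 to 32.3 in young epithelium, without overlap. Of 18 other epithelial transcription factors, 3 had an unadjusted p-value under 0.05. Among these, Prdm1 (encoding BLIMP1, a factor of terminal differentiation) had 30.4 to 41.3 normalized counts in aged and 44.7 to 49.5 in young epithelium, also without overlap, with a log2 fold change of -0.43 (SE 0.127, adjusted p = 0.930, edgeR). Elf3 had -0.52 and Maf -0.46. Of 20 target genes, 2 had an unadjusted p-value under 0.05, the tight junction gene Cldn1 (0.66) and the cornified envelope gene Sprr1a (-0.43). Of 6 fibroblast markers in the epithelial sheets, 3 had an unadjusted p-value under 0.05, each with the lower mean in aged mice. The sum of the 6 was 281 to 454 in aged and 416 to 633 normalized counts in young epithelium on the scale of the 14 samples, and its part in the values of the 10 genes was not tested.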

How the data were processed

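Bulk RNA-Seq libraries of peeled esophageal epithelium and stroma were analysed from 14 samples. Per the labels, RNA was extracted with RNeasy kits, enriched with oligo(dT) beads and made into libraries with an NEB Ultra II kit. The authors aligned reads to GRCm38.p6 with Rsubread and deposited whole-number counts per gene from featureCounts; the submitters' processing notes name bcl2fastq and GRCm38. Tool versions, annotation release, strand and handling of reads with several matches are not given in the sources used here.

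Groups were taken from the labels, and all 14 samples were used. The 10 genes and all gene lists, the last written for this work, were chosen with earlier results of these data known. 1 gene of these lists is not reported here and was left out of the counts. Counts were tested in R 4.3.3 with edgeR 4.0.16 (TMM, filterByExpr with a minimum count of 10, estimateDisp, robust glmQLFit, glmQLFTest) and Benjamini-Hochberg adjustment over all genes tested, at 0.05. Epithelium was compared with stroma over 14 samples without a covariate, and age over 9 epithelial samples, adjusting for mouse code form. The standard error is the log2 fold change divided by the square root of F. Normalized counts of the layers and of the ages are on separate TMM scales. Exon positions came from GENCODE M21 and promoter windows from RefSeq on GRCm38.p6. Depth was 8217516 to 21867101 counts per sample. Per list, genes were named by the largest and smallest called log2 fold changes and those not called; further relatives and other genes were named after their values were seen. Alternatives were DESeq2 1.42.0, upper quartile normalization, other filters, ribosomal, repeated and mitochondrial loci left out, mouse as a block, other covariates and subsets, and each sample left out.

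Layers of a mouse share its code, which pairs them. Their deviations from the group means correlated by 0.0344 to 0.0918 over 16791 genes. The epithelial group means also took in the mice with epithelium only, so these correlations do not measure how closely the layers of a mouse went together. No replicate pair agreed within sampling noise (20 pairs, lowest chi-square per degree of freedom 12.0). The scripts were tested on simulated counts.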

Additional observations from a re-analysis of the deposited data

Results flagged for a closer look

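In 2 of the 30 groups examined (10 genes in aged epithelium, young epithelium and stroma), a single sample stood far from the others by Dixon's criterion on the log2 scale, which chance meets in about 1 of 20 groups. Pitx1 in the aged epithelium of OM8 was low at 71.2 normalized counts, where the other 4 aged samples lay between 107 and 123. Trp63 in the young epithelium of YF5 was low at 46.4 normalized counts, where the other 3 young samples lay between 80.8 and 87.0. OM8 and YF5 are both mice with epithelium only, with 360 reads of Pitx1 in OM8 and 132 reads of Trp63 in YF5.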

How the results depend on the processing

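The 10 genes were called higher in epithelium under each alternative that tested them, with adjusted p-values of 0.00563 or less. When each sample had to hold 10 counts or more, only 4 of them were tested (Trp63, Klf4, Klf5 and Tfap2a), all 4 were called, and 4316 of 6711 genes were called. With mouse as a replicate block in the 5 paired mice 10 of 10 members were called, and the block changed none of their calls. Leaving out a sample left 10 called, with 8827 to 10093 genes called in all.

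By age, 0 of 10 members were called under all 17 alternatives. Over all genes, 2 were called, against 28 with DESeq2, 36 without a filter, 0 without the covariate, 4 in the mice with both layers, 1 in the mice with epithelium only and 0 to 3 with a sample left out (1 without O1 or O3, 0 without Y1). Ovol1 (0.28 to 0.48) and Tfap2a (0.13 to 0.33) kept a positive log2 fold change. The other 8 changed sign in 32 of their 136 values over the 17 alternatives. Pax9 became 0.0043 with DESeq2, 0.013 with upper quartile normalization, 0.012 without ribosomal, repeated and mitochondrial loci, 0.024 under the strict filter and 0.11 in the mice with epithelium only. Without a filter Sox2 became -0.023 and Grhl3 -0.015. In the mice with both layers Trp63 became 0.019, Klf4 0.053, Klf5 0.093, Grhl3 -0.024 and Pitx1 0.032. In the mice with epithelium only Sox2 became -0.44 and Grhl1 0.076. With a sample left out, Trp63 ran from -0.27 to 0.012, Sox2 from -0.12 to 0.090, Klf4 from -0.11 to 0.030, Klf5 from -0.11 to 0.049, Grhl3 from -0.050 to 0.12, Pax9 from -0.11 to 0.060 and Pitx1 from -0.20 to 0.068. The cause of these changes was not tested.

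The Trp63 difference between mice with both layers and mice with epithelium only, whose alternatives were chosen after seeing the data, ran from 0.55 to 0.89 with a sample left out. Depth limits the epithelium of the mice with epithelium only, where Sox2 rested on 57 to 93 reads, and the stroma, where members were at 0 in up to 3 genes per sample. Tests cover the spread between mice and not the loss of molecules before sequencing.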
